A study of Mus musculus with 6 samples.

Results

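Exonic antisense long non-coding RNAs (lncRNAs) are transcripts without a recognised protein product that lie on the strand opposite a protein-coding gene and overlap at least 1 of its exons. Some antisense RNAs are known to silence the gene they overlap, as Airn does for Igf2r on the paternal chromosome, while others are transcribed together with it. The adult testis is known for transcribing an unusually broad share of the genome, above all in meiotic and post-meiotic germ cells. Here the question was which antisense lncRNAs and overlapped genes differed between neonatal and adult mouse testis in the same direction, and which in opposite directions. Members were the lncRNA probes placed in an exonic antisense context by the annotation that accompanies the arrays. They numbered 495 of the 14717 lncRNA probes on the array (3.36%). That annotation covers lncRNAs that differed by at least 5-fold between the ages at an unadjusted paired p of at most 0.05, so the lncRNAs' own differences chose the members and are given below as a description, from which nothing is concluded. The overlapped genes were not chosen by their own values, and their changes were tested.

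The samples were testes of untreated male C57/BL6 mice at 6 days of age (neonatal) and 8 weeks of age (adult), with 3 replicates per age and several mice divided among the replicates of each age. At 6 days the seminiferous tubules hold Sertoli cells and early spermatogonia, and at 8 weeks they hold every stage up to mature spermatids, as background. Total RNA was copied with an oligo-dT primer, labelled with Cy3 and hybridised to 1-colour Agilent arrays, 1 array per replicate, and 65.9% to 69.8% of the spots on each array were well above background. The labels do not state whether the labelling kept the strand of the RNA, so a gene and an antisense transcript over its exon may not be told apart by their probes; this was not tested. Values are log2 signals relative to the 75th percentile of their array, and -7.23 is the floor shared by all arrays, at which values have no order. Where 6 values are given for a probe they include spots that the scanner software marked as outliers, which were left out of the fit. The number of neonatal and adult array pairs in the fit is given with each test, and 3 arrays per age limit its precision.

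The labelled tissue and ages were checked against cell markers, here with outlier-marked spots kept so that more genes could be read. All 5 spermatid markers (Tnp1, Tnp2, Acrv1, Acr and Spaca1) were higher in the adult, with a median log2 difference of 9.26. Their mean level was -3.38, -3.40 and -2.76 in the neonatal arrays and 5.99, 6.09 and 6.53 in the adult arrays. Of 5 spermatocyte markers 3 were higher, and of 4 measured spermatogonial markers 3 were lower. Of 5 Sertoli cell markers 2 were lower, of 4 endothelial markers 2 were lower, and of 5 Leydig cell markers 1 was higher (Insl3), while 0 of 3 measured markers of peritubular myoid cells and 0 of 3 of macrophages were called. Epididymal tissue was also looked for: of 4 measured markers 1 was called, Defb42, as lower. It measured -0.57, -1.65 and -0.28 in the neonatal arrays and was at the floor in the 3 adult arrays, so no exact fold can be given. Crisp1, another epididymal marker, measured 2.43, -4.34 and 2.51 in the neonatal arrays and -4.23, -4.37 and -5.30 in the adult arrays. Of 2 measured red blood cell genes 1 was lower (Hba-a1, at -3.78), while Alas2 lay the other way, at 2.02 and without a call. The Leydig cell markers were mixed as well. Beside Insl3, Hsd17b3 was at -2.04, Cyp17a1 at 0.77, Cyp11a1 at 1.30 and Star at 1.34, none of them called. In whole testis, fewer cells of a type and less RNA per cell cannot be told apart, which holds for every gene below.

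Of the 495 lncRNAs, 394 (79.6%) were higher in the adult and 101 were lower. The median size of the difference was 4.69 on the log2 scale among those higher, ranging from 1.11 to 13.19, and 2.46 among those lower, ranging from 1.40 to 5.67. In 185 of the 394 and 48 of the 101, the lncRNA did not stand out from background in the dimmer age, and only a lower bound of the fold can be given. In 142 and 35 lncRNAs the signal was well above background on all 6 arrays. The 2 ages did not overlap for any of the 495, but members were chosen for a difference between the ages, so nothing is read from this. Limma tested 353 of the lncRNAs higher in the adult and called 331, and it tested 97 of those lower and called 52, where it called 19.9% of all lncRNA probes tested as higher and 9.62% as lower. At a fold of at least 2 it called 31.4% of them as higher and 27.2% as lower. The choice of members set their own calls, so nothing is read from these shares. The remaining 45 had too few unmarked spots to be tested, and the direction of 10 members came from outlier-marked spots alone.

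Among the lncRNAs with the largest differences was uc008vov, antisense to Tmem82, a gene for a transmembrane protein. It measured -6.94, -6.62 and -6.49 in the neonatal arrays and 6.38, 6.63 and 7.73 in the adult arrays, at least 9351-fold higher. Another was uc007hbx, antisense to Kcnmb4, an accessory subunit of a calcium-activated potassium channel, at the floor in the 3 neonatal arrays and at 4.99, 5.13 and 4.87 in the adult ones. A further one was AK005929, antisense to the U-box ubiquitin ligase Ubox5, at the floor in the neonatal arrays and at 4.81, 5.15 and 5.50 in the adult arrays. All 3 were thus transcripts seen in the adult alone, since none was well above background at 6 days, and lower bounds do not rank them. Of their genes, Tmem82 was seen in the adult alone, at least 3.98-fold higher and without a call at 5-fold. Ubox5 differed by 2.15-fold (2 pairs), also without a call at 5-fold. Both genes were called higher at 2-fold. Tmem82 had a log2 change of 4.06 without the floor and 3.27 in the authors' values, past the limit in both. Kcnmb4 could be tested only with marked spots kept, where it rose by 2.60 (SE 0.11, limma adjusted p = 9.81e-05).

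Other lncRNAs were lower in the adult. uc007ysq, antisense to Dnajb11, a chaperone partner of the endoplasmic reticulum, measured -1.62, -1.55 and -1.29 in the neonatal arrays and -7.23, -7.23 and -7.03 in the adult arrays, at least 40.9-fold lower. The Dnajb11 probe was not well above background at either age. uc008ttn, antisense to the transcription factor Nfia, measured -2.20, -1.78 and -1.41 at 6 days and -6.43, -6.13 and -6.85 in the adult. uc009czd, antisense to the matrix protease Adamts9, measured -3.01, -2.70 and -2.61 and was at the floor in all 3 adult arrays. With marked spots kept, Nfia and Adamts9 fell as well, by 2.66 and 2.64 on the log2 scale (limma adjusted p = 9.54e-05 and 0.000109), so both of these pairs moved together. AK032571 over Lrrc40 and uc009lhk over Hook3 were higher in the adult by at least 2.02-fold and 2.37-fold. Lrrc40 itself had a log2 fold change of -0.165 (2 pairs) and Hook3 one of -1.69 (3 pairs). Neither gene was called at 5-fold, while Hook3 was called lower at 2-fold. In the authors' values the members nearest to the 5-fold limit were AK032571 at 5.006-fold, AK031288 at 5.043-fold (lower in the adult) and AK076393 at 5.079-fold. Among all lncRNA probes, AK037075, uc007zsj and uc008urt lay just outside it, each at 4.999-fold.

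The 495 lncRNAs belonged to 475 gene accessions. Of the 495 pairs, 491 had a gene found in the RefSeq table (GRCm38.p6), every one on the same chromosome as its lncRNA. Where that table gave the gene's strand it was the opposite one, in 380 of 380 pairs. The lncRNAs spanned a median of 3324 bases, from 242 to 173646, in coordinates whose build is not stated. The X chromosome held 0 of the lncRNAs higher in the adult and 2 of those lower. Its share of all lncRNA probes was not counted, so nothing is read from this.

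Probes for the gene itself existed for 457 pairs, and 38 pairs had none. In 21 of the 457 the gene was near background at both ages, in 105 outlier marks left too few spots, and 331 pairs with 319 gene accessions were tested, 170 of them on 2 pairs of arrays. Outlier marks were most frequent on the slide that held replicate 3 of both ages, where 30.7% and 25.4% of spots were marked. At a fold of at least 5 and an adjusted p of at most 0.05 in limma, 50 gene accessions were higher in the adult testis and 44 were lower. Counted as pairs these were 51 (15.4%) and 45 (13.6%), where 12.6% of all tested mRNA probes were called higher and 13.7% lower. The shares were therefore near those over the whole array. With outlier-marked spots kept, 436 pairs were tested and 66 gene accessions were higher and 69 lower, against 12.8% and 15.4% of mRNA probes (23.0% and 39.0% at 2-fold). At a fold of at least 2, 85 accessions were higher and 111 lower, against 23.3% and 36.6% of mRNA probes.

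The direction of the lncRNA and that of its gene were then set side by side. Gene and lncRNA went the same way in 72 of the 331 tested pairs (21.8%) and opposite ways in 24 (7.25%), while in 235 the gene was not called. Among the 266 pairs with a lncRNA higher in the adult, the gene was higher in 48 (18.0%) and lower in 21 (7.89%). Among the 65 pairs with a lncRNA lower in the adult, the gene was lower in 24 (36.9%) and higher in 3 (4.62%). Over all tested mRNA probes 12.6% were called higher and 13.7% lower. The median log2 fold change of the gene was -0.14 beside a higher lncRNA and -1.94 beside a lower one, where that over all 15121 tested mRNA probes was -0.40. With marked spots kept, 99 of 436 pairs went the same way and 42 opposite ways, and at 2-fold 123 and 79 of 331 did. Over all mRNA probes 12.8% were higher and 15.4% lower in the former setting, and 23.3% and 36.6% in the latter. Normexp background correction gave 48 and 13 of 331, and the authors' values gave 99 and 49 of 417. Without replicate 1 the counts were 35 and 15 of 166, and without replicate 2 they were 35 and 14 of 162. For normexp, the authors' values and the fits without a replicate, the shares over all mRNA probes were not counted. The pair counts in those settings are therefore given as a description. Under the call used for genes, limma called the lncRNA as well in 34 of the 48 pairs with both higher (9 untested). It did so in 12 of the 24 with both lower (1 untested) and 19 of the 21 with only the lncRNA higher. Of the 3 with only the gene higher it called 0 (1 untested). The choice of members set these calls, so nothing is read from them.

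The protamine genes were among the pairs in which both partners were higher in the adult. Protamines replace the histones in the nucleus of the elongating spermatid and pack the DNA of the sperm head. Prm2 measured -5.15, -5.74 and -5.25 in the neonatal arrays and 8.76, 8.94 and 9.12 in the adult arrays. Prm1 measured -4.40, -4.98 and -4.58 at 6 days and 7.58, 7.92 and 7.93 at 8 weeks. In both genes every adult array lay far above every neonatal one. The ages likewise did not overlap for the gene in any of the 96 called pairs, and the share over all mRNA probes was not counted. The log2 fold change was 14.32 for Prm2 (SE 0.18, limma adjusted p = 7.39e-05, 3 pairs) and 12.47 for Prm1 (SE 0.21, adjusted p = 8.41e-05, 3 pairs). The antisense lncRNA of Prm2, uc007yei, was at the floor in the 3 neonatal arrays and at -0.43, -0.23 and -0.49 in the adult arrays. That of Prm1, uc007yeg, was at the floor at 6 days and at -1.44, -1.10 and -1.93 in the adult. Both lncRNAs end at the same base of chromosome 16 and each covers most of the other, so they are not independent members. The spermatid markers given above rose in the same arrays, and their part in the change of the 2 genes was not tested.

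The next pairs with both partners higher belonged to other families. Cd55b, listed on the array as Daf2, encodes a membrane protein that shields cells from complement. It was at the floor in all 3 neonatal arrays and at 3.19, 2.88 and 3.37 in the adult arrays, at least 1147-fold higher (limma adjusted p = 0.000151, 2 pairs). Its lncRNA AK019553 was likewise at the floor at 6 days and at 1.24, 1.29 and 1.43 in the adult, so gene and lncRNA were both seen in the adult alone. Fyb, an adaptor protein of T cell receptor signalling, measured -4.26, -4.38 and -4.36 at 6 days and 4.56, 4.56 and 4.07 in the adult, and rose by 8.88 (SE 0.14, adjusted p = 0.000151, 2 pairs). Hdgfl1, a relative of hepatoma-derived growth factor, measured -2.95, -2.83 and -3.32 and then 5.51, 5.62 and 5.59, a change of 8.45 (SE 0.14, adjusted p = 0.000153, 2 pairs). Their lncRNAs went from at or near the floor to between -1.36 and -0.28 for uc007vdl over Fyb and between -3.16 and -1.47 for AK133257 over Hdgfl1. No array of one age reached the values of the other in any of these 3 genes, as in all 96 called pairs.

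Among the other genes of this class were regulators of transcription and of cilia. Deup1, listed as Ccdc67, builds the deuterosome, a platform that multiciliated cells use to make centrioles. It measured -7.23, -6.23 and -7.10 in the neonatal arrays and 0.44, 0.28 and 0.09 in the adult arrays, a change of 7.12 (SE 0.25, limma adjusted p = 0.000158, 3 pairs). Only 1 neonatal array was well above background, and the size was 4.76 after normexp background correction and 7.62 without the floor. Its lncRNA uc009ogf went from between -5.60 and -5.34 to between -1.70 and -0.68. Nkx2-6, a homeobox transcription factor known from the pharynx and heart of the embryo, measured -5.44, -4.94 and -5.13 and then 2.74, 2.53 and 2.64, a change of 7.83 (SE 0.25, adjusted p = 0.000376, 2 pairs) that the methods' t-test, a paired test per probe, did not call after Benjamini-Hochberg adjustment. Its lncRNA uc007uma ran from between -5.74 and -4.82 to between 3.84 and 4.67. Sox5, an HMG-box transcription factor, had 2 accessions with a lncRNA each, and both probes rose. The probe paired with AK016816 was at the floor at 6 days and at -0.57, -0.95 and -1.12 in the adult, at least 76.3-fold higher (adjusted p = 0.000111, 3 pairs), and the other rose by 4.86 (SE 0.21, adjusted p = 0.000212). Further members of this class were Cdkl1 (7.65), Oit1 (7.82), Pdzk1 (7.05), Antxrl (6.97), Atxn7l1 (6.50), Arsa (4.75), the arylsulfatase of lysosomes, and Camk4 (3.67), a calcium-dependent kinase of the spermatid nucleus.

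In the other concordant class both partners were lower in the adult. Samd14, a protein with a sterile alpha motif, measured 0.54, 0.67 and 0.05 in the neonatal arrays and -3.82, -3.99 and -4.02 in the adult arrays, and fell by 4.51 (SE 0.16, limma adjusted p = 0.000482, 2 pairs). Twist2, a basic helix-loop-helix repressor of mesenchymal cells, measured -1.50, -1.42 and -1.23 and then -5.62, -6.25 and -5.91, and fell by 4.48 (SE 0.24, adjusted p = 0.00108, 2 pairs). Pde8b, a phosphodiesterase that breaks down cyclic AMP, measured 1.03, 1.24 and 1.55 and then -2.65, -2.36 and -2.36, and fell by 3.64 (SE 0.14, adjusted p = 0.000553, 2 pairs). In each of these 3 genes the lowest neonatal array lay above the highest adult one, and no called pair had a gene whose ages overlapped. Fam184b fell by 3.56 (SE 0.18, adjusted p = 0.000931) and Sertad4 by 3.44 (SE 0.14, adjusted p = 0.000626), each on 2 pairs. The lncRNAs over Samd14 and Twist2 had no limma call of their own. Twist2 was not called by the methods' t-test, and Samd14 and Fam184b were not after its adjustment. The lncRNA over Twist2, BC060604, measured -5.13, -4.76 and -4.98 and was at the floor in the adult. Those over Fam184b and Sertad4 were also at the floor in all 3 adult arrays. AK146143 over Samd14 went from between -5.28 and -4.26 to between -7.23 and -6.79, and AK053128 over Pde8b from between -4.02 and -3.31 to between -7.23 and -5.59.

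The remaining genes of this class included the transcription factors Ebf1 (-2.69), Sp9 (at least 5-fold lower), Klf13 (-2.54) and Nr2f2 (-2.42), the last a nuclear receptor known from the precursors of Leydig cells. The collagen-modifying enzyme Plod2 was a member through 2 accessions, and both probes fell (-2.86 and -2.85). Cidea, a protein of lipid droplets, had 2 lncRNAs over the same gene, both lower (at least 2.34-fold and 4.37-fold), and it fell by 2.32 (SE 0.11, limma adjusted p = 0.000247, 3 pairs). Hnrnpa2b1, an RNA-binding protein of the nucleus, fell by 2.54 (SE 0.19, adjusted p = 0.000723, 3 pairs).

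In 21 pairs the lncRNA was higher in the adult while its gene fell. Necab1, a calcium-binding protein of neurons, measured -1.38, -1.35 and -0.03 in the neonatal arrays and -6.32, -6.22 and -4.70 in the adult arrays, and fell by 4.83 (SE 0.11, limma adjusted p = 0.00011, 3 pairs). Its lncRNA uc008sbh was bright at both ages, at 1.58, 1.68 and 1.37 and then 6.37, 6.65 and 6.72. Vcan, the large chondroitin sulphate proteoglycan versican, measured -0.13, 0.00 and 0.55 and then -3.97, -3.95 and -3.73, and fell by 3.89 (SE 0.14, adjusted p = 0.000497, 2 pairs). The lncRNA over it, uc007rjm, lay between -5.48 and -4.73 at 6 days and had a mean of -0.91 over the 2 unmarked spots in the adult. The ages were ordered one way for the gene and the other way for the lncRNA on all 6 arrays, in both pairs. The genes of all 96 called pairs had ages that did not overlap, and the lncRNAs were chosen for their difference. Nothing is therefore read from this order.

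Ap2a2, a subunit of the clathrin adaptor at the plasma membrane, measured -3.12, -3.21 and -3.04 in the neonatal arrays and -6.29, -7.23 and -7.23 in the adult arrays, well above background in 1 of the 3. It fell by 3.79 (SE 0.24, limma adjusted p = 0.000478, 3 pairs), but by 1.33 and without a call after normexp background correction. Its lncRNA uc009klt was at the floor at 6 days and at 0.33, 0.16 and 0.75 in the adult, at least 166.2-fold higher. Sh3bp1 fell by 3.70 (SE 0.15, limma adjusted p = 0.000608, 2 pairs). The lncRNA over it, AK006404, went from between -6.36 and -6.08 to between -0.16 and 0.40. Akr1b7, an aldo-keto reductase known as the vas deferens protein, measured -0.15, -0.30 and -2.14 and then -5.14, -5.06 and -6.12, and fell by 4.58 (SE 0.23, adjusted p = 0.000294, 3 pairs). Its lncRNA uc009bhe went the other way, from between -4.54 and -4.04 to between -0.27 and 0.36. Of the 4 measured epididymal markers only Defb42 was called lower, while Crisp1 was high in 2 of the 3 neonatal arrays, Lcn9 was at the floor at 6 days and above it in the adult, and Adam7 overlapped between the ages. Their mean level was -1.82, -3.91 and -1.50 at 6 days and -5.33, -4.84 and -4.90 in the adult, and their part in the value of Akr1b7 was not tested.

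Of the genes listed below under matrix and adhesion, 4 were in this discordant class. Beside Vcan these were Col11a1, a chain of fibrillar collagen (8.02-fold lower), Lamc3, a laminin chain of basement membranes, and Cntn3, a contactin of the nerve cell surface. Smoc2, a matricellular protein listed under developmental signalling, fell by 3.32 (no call by the methods' t-test after adjustment), and Tenm4, a teneurin on none of the lists and named Odz4 on the array, fell by 3.47. Cntn3 and Lamc3 were not well above background in any adult array, and were at least 6.13-fold and 5.98-fold lower. Smoc2 itself measured 3.15, 3.09 and 3.63 and then 0.04, -0.44 and 0.14, so a bright neonatal gene lay opposite a lncRNA, uc008amz, that went from between -5.42 and -4.49 to between 2.08 and 2.63. Other genes were Cgas, a sensor of cytosolic DNA listed as E330016A19Rik (-3.09), Ovca2 (-3.30), Vipr2, a receptor for vasoactive intestinal peptide (at least 8.28-fold lower), Ska2, a kinetochore protein listed as Fam33a (-2.47), Cyria, listed as Fam49a (-2.47), and Prr36, listed as BC068157 (at least 4.11-fold lower).

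Among 5 further discordant genes most lay near the detection limit in the adult. Got2, the mitochondrial aspartate aminotransferase, measured -3.08, -3.09 and -4.35 at 6 days and was not well above background in the adult, at least 9.71-fold lower (limma adjusted p = 0.000792, 3 pairs). Kcnj15, an inwardly rectifying potassium channel, was at least 5.95-fold lower (adjusted p = 0.000245), and the zinc finger gene Zfp341 at least 5.35-fold lower (adjusted p = 0.000497). Prpf31, a splicing factor of the spliceosome's tri-snRNP, was at least 4.47-fold lower (adjusted p = 0.0041) and was not called without replicate 1, without replicate 2 or by the methods' t-test after adjustment. Prdx1, an enzyme that reduces peroxides, measured -1.99, -1.47 and -0.63 and then -4.17, -4.81 and -4.24, and fell by 3.05 (SE 0.32, adjusted p = 0.00175). After normexp background correction none of the 5 was called, with values of -0.92 for Got2, -0.59 for Kcnj15, -0.60 for Zfp341, -0.61 for Prpf31 and -1.64 for Prdx1.

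The reverse discordance, a lncRNA lower in the adult over a gene that rose, was found in 3 pairs. Sgf29, listed as Ccdc101, is the subunit of the SAGA complex that reads methylated histone tails. It measured 2.43, 2.32 and 2.95 in the neonatal arrays and 5.26, 5.25 and 6.16 in the adult arrays, a change of 2.88 (SE 0.14, limma adjusted p = 0.000878, 2 pairs), while AK020571 went from -4.89, -4.77 and -4.45 to -6.70, -7.23 and -6.31. Hmox2, the constitutive heme oxygenase, measured 2.31, 2.38 and 3.43 and then 5.29, 5.24 and 6.17, a change of 2.86 (SE 0.11, adjusted p = 0.000172, 3 pairs), which quantile normalization lowered to 2.26, under the 5-fold limit. Its lncRNA BC029975 went from -1.24, -1.64 and -2.11 to -3.51, -3.52 and -4.29. Slc7a15, a member of an amino acid transporter family, was dim, at -7.23, -6.85 and -7.23 and then -4.34, -4.17 and -3.86, a change of 2.98 (SE 0.17, adjusted p = 0.000387, 3 pairs). It changed by 1.65 after normexp background correction and by 2.08 as the mean over all probes of the symbol, with no call in either. The lncRNA uc007mzr went from between -6.49 and -4.42 to the floor. In all 3 pairs the ages did not overlap for the gene, as in all 96 called pairs. By the call used for genes, limma called neither AK020571 nor uc007mzr, and BC029975 was not tested because its 3 neonatal spots were marked as outliers, so its direction rests on marked spots.

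With marked spots kept, Adcy10 joined this class. It encodes the soluble adenylyl cyclase that bicarbonate activates and that sperm need to move. The gene measured -6.75, -6.94 and -6.27 in the neonatal arrays and 0.58, 0.20 and -0.66 in the adult arrays, and rose by 6.69 (SE 0.39, limma adjusted p = 0.000207, 3 pairs). Its lncRNA AK047496 had a mean of -5.53 at 6 days and was at the floor in the adult, at least 2.48-fold lower and without a limma call. Sycp2, a component of the axial elements of meiotic chromosomes, measured -4.52, -5.36 and -6.58 and then -0.61, -0.23 and -1.33, and rose by 4.76 (SE 0.31, adjusted p = 0.000288). Its lncRNA AK077193 went the same way, from between -5.98 and -4.60 to between -1.28 and -0.15. All 3 adult spots of Sycp2 and 2 of Adcy10 were marked as outliers, so neither gene was tested otherwise.

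A further 4 genes that the study annotates to testis development or spermatogenesis changed by less than 5-fold. Sycp1, which forms the transverse filaments of the synaptonemal complex, measured 3.07, 2.91 and 2.72 and then 3.90, 3.70 and 3.64, a log2 fold change of 0.81 (SE 0.14, 2 pairs) that did not reach 5-fold. Its lncRNA AK015852 was at -6.99, -6.37 and -6.98 and then at -1.05, -1.68 and -1.42. So the gene was bright at both ages while the lncRNA was near the floor at 6 days alone. Fancl, a ubiquitin ligase of the Fanconi anaemia pathway, had a log2 fold change of 0.58 (SE 0.14, 2 pairs) beside a lncRNA higher by 3.15. Nos3, the nitric oxide synthase of endothelium, measured -4.85, -4.68 and -3.72 and then -4.90, -5.06 and -4.14, with overlapping ages and a value of -0.28 (SE 0.13). Ereg, a growth factor of the EGF family, had a value of -0.69 (SE 0.15). Their lncRNAs were higher by 4.86 and 3.56. None of these 4 genes was called. After normexp background correction the values of Nos3 and Ereg were 0.34 and 0.22.

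Dhh and Notch1 could be tested only with marked spots kept, and both were discordant there. Dhh, the hedgehog ligand that Sertoli cells send to Leydig and myoid cells, measured 1.95, 2.10 and 0.62 in the neonatal arrays and -1.18, -1.41 and -2.96 in the adult arrays, and fell by 3.41 (SE 0.15, limma adjusted p = 0.000101, 3 pairs). Its lncRNA AK134149 went from between -4.60 and -4.21 to between -0.38 and 0.17. The receptor Notch1 measured 1.48, 0.60 and -0.08 and then -2.50, -2.55 and -3.17, and fell by 3.40 (SE 0.23, adjusted p = 0.000293), while BC023886 went from between -3.25 and -2.80 to between -0.10 and 0.10. In both genes every neonatal array lay above every adult one. The Sertoli cell markers had a mean level of 1.94, 2.04 and 2.13 at 6 days and 0.00, -0.26 and 0.04 in the adult, and their part in the fall of Dhh was not tested.

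Other genes of the Notch pathway and of the synaptonemal complex, none of them members, were read with marked spots kept. Of 10 measured Notch pathway genes 4 were lower (Notch2, Notch3, Heyl and Lfng) and 1 was higher (Dll3), with a median of -2.30, where 15.4% of mRNA probes were lower and 12.8% higher. With marked spots left out 2 were lower, 1 was higher and 4 were not tested. Lfng, which adds sugars to Notch receptors, fell by 4.48 (SE 0.13, limma adjusted p = 4.01e-05), and the target gene Heyl fell by 4.53 (SE 0.12, adjusted p = 3.32e-05). The ligand Dll3 rose by 3.22 (SE 0.16, adjusted p = 0.000135). Among members, the ligand Dll4 went down together with its lncRNA. Dll4, known from sprouting endothelium, measured -1.79, -1.74 and -2.10 and then -4.15, -4.08 and -4.23, and fell by 2.35 (SE 0.14, adjusted p = 0.00125, 2 pairs). With marked spots kept its value was -2.28, and after normexp background correction -1.81, both short of 5-fold. The endothelial markers had a mean of 0.33, 0.53 and 1.06 at 6 days and -1.56, -2.00 and -1.11 in the adult, and their part in the value of Dll4 was not tested. Of 7 measured synaptonemal complex genes 2 were higher, Syce1 by 2.94 (SE 0.14, adjusted p = 0.000122) and Hormad1 by 3.03 (SE 0.11, adjusted p = 7.69e-05), with a median of 0.86, and with marked spots left out 1 was higher and 3 were not tested.

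The overlapped genes were also counted by function, over 11 lists, to be read beside all tested mRNA probes, of which 12.6% were called higher and 13.7% lower at 5-fold, 23.3% and 36.6% at 2-fold, and 12.8% and 15.4% at 5-fold with marked spots kept. Of 17 genes of germ cells, meiosis and DNA repair, 12 were tested, 4 rose and 1 fell, with a median log2 fold change of 0.67, and at 2-fold 4 were higher and 3 lower. The 4 were Prm1, Prm2, Ly6k (3.19), a surface protein of germ cells, and Poln (2.76), a DNA polymerase. The gene that fell was Polm, a DNA polymerase of end joining, at -3.07 (SE 0.17, limma adjusted p = 0.00106, 2 pairs), below a lncRNA that was lower without a limma call, and the methods' t-test did not call it after adjustment. Keeping marked spots, 6 rose and 2 fell of 16, adding Pms1, a mismatch repair gene, at -2.78 beside a lncRNA that was higher. The mean of the spermatid markers rose in the same arrays, and its part in these counts was not tested.

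Genes of the cilium, flagellum, centrosome and dynein were overlapped by 18 lncRNAs, all of them higher in the adult, as were 79.6% of all members. Of 8 tested genes 2 rose and 0 fell, with a median of 1.70, and at 2-fold 5 rose and 1 fell. The 2 were Deup1 and Armc2, an armadillo repeat protein needed for the sperm flagellum. Armc2 measured -5.20, -5.20 and -4.83 and then -2.06, -2.04 and -2.03, a change of 3.03 (SE 0.13, limma adjusted p = 0.000202, 3 pairs), which was 2.31 and short of the limit after normexp background correction. Its lncRNA uc007eyj went from between -3.96 and -3.69 to between 4.19 and 4.37. When marked spots were kept 4 of 13 rose, adding Hydin (6.67), a protein of the axoneme's central pair with 2 lncRNAs over it, and Dnaaf3 (6.04), a dynein assembly factor listed as 6030429G01Rik. Kif27 (-0.81) and Dync1i1 (-1.48) were not called, although the lncRNA over Dync1i1 was higher by 10.73.

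The list of 18 chromatin and histone genes had 13 tested, of which 3 rose and 0 fell, with a median of -0.14, at 2-fold 4 were higher and 4 lower, and with marked spots kept 3 rose and 1 fell of 16. Chrac1, a histone-fold subunit of a chromatin remodelling complex, measured 3.10, 3.20 and 3.74 and then 6.08, 6.08 and 7.00, a change of 2.93 (SE 0.14, limma adjusted p = 0.000849, 2 pairs) alongside a lncRNA higher by 3.96. The others were Hmga2 (2.58), an architectural protein of AT-rich DNA, and Sgf29. H1f0, the linker histone of resting cells, fell by 5.26 with marked spots kept (SE 0.25, adjusted p = 0.000129) below a lncRNA higher by 5.30. For DNA-binding transcription factors, 21 of 33 genes were tested, 6 rose and 6 fell, and the median was -0.45 (7 higher and 8 lower at 2-fold, and 7 and 8 of 28 at 5-fold with marked spots kept). Those that rose were Nkx2-6, both accessions of Sox5, Lef1 (at least 7.93-fold), Hmx1 and Zfp574 (3.87), all under lncRNAs that were higher. Those that fell were Twist2, Ebf1, Sp9, Klf13 and Nr2f2 under lncRNAs that were lower, and Zfp341 under a lncRNA that was higher.

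Of 23 genes of the matrix and of adhesion, 16 were tested, 0 rose and 7 fell (Plod2 by 2 accessions), with a median of -2.18, and with marked spots kept 11 of 20 fell. At 2-fold 4 were higher and 11 lower. The falls came from both kinds of pair: Adamts5 and Plod2 fell with their lncRNAs, while Vcan, Col11a1, Lamc3 and Cntn3 fell against theirs. Some somatic markers were lower in the same arrays and others were not. The mean of the 3 measured peritubular myoid markers was 1.23, 1.30 and 1.53 at 6 days and -0.77, -0.81 and -0.58 in the adult, with a median of -2.01, and 0 of 3 reached 5-fold. Endothelial markers had a median of -2.33, Sertoli cell markers one of -1.87 and macrophage markers one of -0.43, while that of Leydig cell markers was 1.29, and the part of these cells in the counts was not tested. Adamts5, a protease that cleaves versican and aggrecan, measured -0.47, -0.67 and -0.82 and then -3.87, -4.06 and -4.49, and fell by 3.39 (SE 0.14, limma adjusted p = 0.000616, 2 pairs). Its lncRNA AK031656 went from -1.55, -1.61 and -0.87 to -5.99, -5.76 and -5.25. Serpinh1, the chaperone of collagen, fell by 4.11 with marked spots kept (SE 0.16, adjusted p = 8.01e-05), as did its lncRNA, and the tetraspanin Cd9 fell by 3.85 (SE 0.22, adjusted p = 0.000196) below 2 lncRNAs that were higher. Developmental signalling genes numbered 20, of which 13 were tested, 0 rose and 2 fell (Dll4 and Smoc2), with a median of -0.69 (2 higher and 6 lower at 2-fold). In the fit that kept marked spots 5 of 18 fell, among them Ccn2, listed as Ctgf (-2.64), and the endothelin receptor Ednra (-3.64).

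The lists for immune cells, metabolism, channels and RNA processing were mixed. Of 13 tested immune and blood cell genes 3 rose (Cd55b, Fyb and Dock2, at 2.61) and 0 fell, with a median of -0.37 (4 higher and 4 lower at 2-fold, and 4 and 2 of 17 at 5-fold with marked spots kept), and markers of macrophages were not called. Of 22 tested genes of mitochondria and metabolism 4 rose and 2 fell, with a median of -0.91 (7 higher and 10 lower at 2-fold, and 4 and 3 of 26 at 5-fold with marked spots kept). Those that rose were Eno4, an enolase of the sperm flagellum, Rdh11, a reductase of retinal, Agpat2 (at least 6.76-fold) and Acot12 (2.82), and those that fell were Got2 and Prdx1. Eno4 measured -1.23, -1.17 and -0.54 and then 2.30, 2.15 and 2.76, a change of 3.39 (SE 0.11, limma adjusted p = 0.00014, 3 pairs), and Rdh11 measured -3.54, -3.74 and -4.58 and then -0.18, -1.02 and -1.57, a change of 3.04 (SE 0.23, adjusted p = 0.00204, 2 pairs). The methods' t-test did not call Rdh11, with or without adjustment. Both had a lncRNA that was higher, uc008iba by 4.08 and AK077207 by 6.13.

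Among ion channels and receptors 7 of 14 genes were tested, 2 rose and 1 fell, with a median of 0.39 (3 higher and 1 lower at 2-fold, and 3 and 2 of 10 at 5-fold with marked spots kept). Trpm8, the cold-sensing cation channel, measured -5.84, -5.78 and -4.25 and then -0.76, -0.67 and -0.04, a change of 4.80 (SE 0.23, limma adjusted p = 0.000251, 3 pairs). Adra1d, an adrenergic receptor, was at the floor at 6 days and at -4.35, -4.91 and -4.38 in the adult, at least 6-fold higher (adjusted p = 0.000416), below a lncRNA, AK034299, that was at least 2735-fold higher. After normexp background correction Adra1d changed by 1.56 and was not called. Of 12 tested RNA processing genes 0 rose and 3 fell (Hnrnpa2b1, Srrm4 and Prpf31), with a median of -0.25 (2 higher and 4 lower at 2-fold, and 0 and 3 of 16 at 5-fold with marked spots kept). Srrm4, a splicing factor of neurons, measured -2.24, -1.97 and -1.43 and then -4.95, -4.84 and -4.63, and fell by 2.93 (SE 0.14, adjusted p = 0.000256, 3 pairs), or by 1.73 without a call after normexp background correction. None of 20 tested ubiquitin and proteasome genes was called by limma at 5-fold, while 4 were higher and 5 lower at 2-fold, and with marked spots kept 1 rose and 0 fell of 22. All 22 lncRNAs over such genes were higher in the adult, as were 79.6% of all members.

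Of the genes, 20 had 2 lncRNA members over the same accession, 15 with both higher in the adult, 4 with both lower and 1 with opposite directions. That gene was Aldh5a1, the succinic semialdehyde dehydrogenase of GABA breakdown. One lncRNA over it, uc007pwo, was at the floor at 6 days and at -2.37, -2.95 and -4.48 in the adult, and the other, uc007pwr, measured -5.71, -5.83 and -5.93 and was at the floor in the adult. The gene measured -5.95, -5.75 and -5.20 at 6 days and was at the floor in the adult, at least 2.31-fold lower. It was called lower at 2-fold but not at 5-fold. After normexp background correction its value was 0.0795, and the cause of the turned sign was not tested. Of the 12 such genes that were tested, Ttc34 rose by 5.66-fold under 2 lncRNAs that were higher and Cidea fell under 2 that were lower, while the other 10 were not called. With marked spots kept 19 were tested, 2 rose (Hydin added) and 4 fell (Ccdc68, Cd9 and Gadd45a added), Ccdc68 and Cd9 against 2 lncRNAs that were higher. Over all mRNA probes these shares were 12.6% higher and 13.7% lower, and 12.8% and 15.4% with marked spots kept. Where a gene had 2 accessions, its probes could differ, as for Fbxo3, a subunit of a ubiquitin ligase, at -0.66 and 1.34.

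Imprinted genes were represented by Igf2r and Rtl1. Igf2r, the receptor that takes up insulin-like growth factor 2, measured 2.84, 2.86 and 3.56 in the neonatal arrays and 1.02, 0.80 and 1.39 in the adult arrays, a log2 fold change of -1.94 (SE 0.16, limma adjusted p = 0.00238, 2 pairs), short of 5-fold. At 2-fold Igf2r was called lower, and its ages did not overlap. Airn, measured here as uc008ala, went from -1.13, -0.80 and -1.11 to -5.05, -4.74 and -4.86, and the overlapping transcript uc008alb from -2.86, -2.52 and -2.67 to -5.27, -5.61 and -6.26. Rtl1, a gene derived from a retrotransposon, was at the floor in all 6 arrays, while the lncRNA opposite it, NR_002848, measured -4.14, -3.08 and -3.25 and then -7.23, -7.23 and -5.55.

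For 2 members the study designed PCR primers, printed here as the oligos that define the stretch amplified, which by themselves do not tell the strands apart. AK006530 lies over Ahsa2, a relative of an activator of heat shock protein ATPases, and went from -7.23, -6.76 and -6.93 to 4.76, 4.78 and 5.39. Ahsa2 measured -5.85, -5.42 and -5.86 at 6 days and was not well above background in the adult, at least 2.11-fold lower. It was called lower at 2-fold but not at 5-fold. After normexp background correction its value was 0.21. A second lncRNA over Ahsa2, uc007ifd, was also higher. AK140218, measured as uc008cad, lies over Tapbp, which loads peptides onto MHC class I molecules, and went from -0.59, -0.52 and -0.47 to 2.28, 2.32 and 2.72. Tapbp measured -0.56, -0.60 and -0.93 and then -1.80, -2.33 and -2.29. With marked spots kept its value was -1.44 (SE 0.15), called lower at 2-fold but not at 5-fold. The primers are given 5′ to 3′.
AK006530 forward: caagtgcctgggattgtggatac
AK006530 reverse: cagcccactgtccaggtcatctc
AK140218 forward: tttacaaaagggaaaactgaggc
AK140218 reverse: taggctgataaagggctcaaagtt

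Promoters of 3 genes that rose together with their antisense lncRNAs are printed from RefSeq (GRCm38.p6), each 300 bases around the gene's start on the minus strand, 5′ to 3′. Promoters were found for 362 of the overlapped genes' symbols. The motifs were searched on both strands and are in capitals: TATAA, the core of the TATA box, TGACNTCA, a form of the cyclic AMP response element, and a form of the X-box, 14 bases long, that RFX factors bind. TATAA stood in 24.9% of all 32851 promoters, TGACNTCA in 8.83% and the X-box form in 0.387%. Among the 476 promoters of overlapped genes the shares were 15.8%, 4.62% and 0.63%. Among 51 promoters of genes called higher they were 21.6%, 3.92% and 1.96%, and among 46 of genes called lower 15.2%, 4.35% and 0%. Prm1 (chr16:10796774-10797073) held TGACTTCA at positions 187 to 194 and TATAA at 219 to 223. Prm2 (chr16:10792056-10792355) held TATAA on the reverse strand at 221 to 225, and Deup1 (chr9:15627797-15628096) held the X-box form at 164 to 177. Of the 2 promoters listed for Deup1 the printed one was chosen for its motif. Such matches describe letters and no binding.
Prm1: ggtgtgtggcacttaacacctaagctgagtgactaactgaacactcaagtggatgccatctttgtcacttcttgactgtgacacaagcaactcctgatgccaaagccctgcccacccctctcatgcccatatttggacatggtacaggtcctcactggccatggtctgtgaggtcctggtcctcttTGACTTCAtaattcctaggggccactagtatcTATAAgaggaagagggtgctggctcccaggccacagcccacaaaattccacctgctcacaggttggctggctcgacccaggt
Prm2: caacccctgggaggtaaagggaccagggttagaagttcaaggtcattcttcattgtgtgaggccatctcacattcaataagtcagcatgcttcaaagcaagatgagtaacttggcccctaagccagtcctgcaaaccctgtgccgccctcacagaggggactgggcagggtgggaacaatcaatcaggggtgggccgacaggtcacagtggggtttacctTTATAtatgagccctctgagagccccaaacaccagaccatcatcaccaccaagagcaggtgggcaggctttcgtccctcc
Deup1: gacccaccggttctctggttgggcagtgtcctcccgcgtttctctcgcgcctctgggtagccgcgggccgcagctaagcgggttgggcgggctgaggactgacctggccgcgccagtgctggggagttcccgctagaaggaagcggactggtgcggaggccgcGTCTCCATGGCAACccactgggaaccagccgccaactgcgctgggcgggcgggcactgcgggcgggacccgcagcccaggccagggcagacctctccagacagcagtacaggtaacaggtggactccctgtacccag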

How the data were processed

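Each of 6 arrays came as a scanner file whose intensity columns, per the file headers, were made by Agilent Feature Extraction 10.5.1.1. The authors' deposited log2 values served as an alternative. They equal the log2 processed signal, floored at 5, minus a constant within 0.001 for at least 99.8% of probes. The background-corrected signal was divided by each array's 75th percentile, floored at a signal of 5 on the array with the highest such value and put on the log2 scale. Spots of a probe were averaged, and spots marked as outliers and controls left out. Tests ran on 24517 probes (15121 mRNA, 9396 lncRNA) well above background on at least 1 array with at least 2 complete pairs, with limma 3.58.1 in R 4.3.3, the replicate number as a block and Benjamini-Hochberg adjustment over all. Calls needed a 5-fold change and an adjusted p of 0.05. The pairing was taken from the replicate numbers and the methods' paired test, and same-numbered arrays deviated together (correlations 0.341, 0.248 and 0.587 over 14886 probes). Slide 1 held replicates 1 and 2 and slide 2 replicate 3, and arrays of different numbers on slide 1 also correlated (0.323 and 0.286). A lower bound sets the brighter age's mean against, per array, the higher of the dim signal and the lowest signal well above background. Genes were matched to probes by RefSeq accession, and 21905 of 22464 mRNA probes were named through the RefSeq table. Named pairs were the study's spermatogenesis genes and primer targets, the 5 largest called gene changes per class and the 2 largest per function list and direction. Also named were genes with opposite members, imprinted genes, and the lncRNAs with the 3 largest rises and falls and 2 smallest differences. Other genes in the text were chosen after their values were seen. Members and lists were chosen with earlier results of these data known.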

Additional observations from a re-analysis of the deposited data

How the results depend on the processing

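The counts were 50 gene accessions higher and 44 lower in the adult, and 72 pairs in the same and 24 in opposite directions. The authors' log2 values gave 63 higher, 80 lower, 99 same and 49 opposite, over 417 pairs. Normexp background correction gave 36 higher, 24 lower, 48 same and 13 opposite. It was run with an offset of 50 and on the median signals, because the files hold no mean signal. With outlier-marked spots kept, 69 were lower and 42 opposite, and 105 more pairs were tested. A fold of 2 gave 85 higher, 111 lower, 123 same and 79 opposite. Without each replicate in turn the counts ranged from 25 to 49 higher, 22 to 43 lower, 35 to 69 same and 14 to 24 opposite, with 166, 162 and 325 pairs tested, since replicate 3 carries most marked spots. Without the replicate block the counts were 49, 46, 71 and 26, and with the slide as a block 50, 45, 72 and 25. After seeing the data 2 alternatives were added: the mean over all mRNA probes of the symbol with marked spots kept gave 71 lower and 44 opposite, and slide 2 alone, 1 pair of arrays and fold only, gave 72 lower and 44 opposite. The causes of the other shifts were not tested. Shares over all mRNA probes were counted only for the main fit, at 2-fold and with marked spots kept. Quantile normalization, median scaling, no floor, both filters, the intensity trend and the methods' t-test left each of the 4 counts within 1.5 times its value. Adjusted by Benjamini-Hochberg, the methods' t-test did not call Samd14, Twist2, Fam184b, Polm, Nkx2-6, Smoc2, Rdh11 and Prpf31, and unadjusted it did not call Twist2 and Rdh11. Of the 94 called accessions 59 stayed called after normexp, and no pair was called in the opposite direction under any setting. Some that stayed called had smaller changes after normexp, as Necab1 at -3.37, Akr1b7 at -3.10 and Twist2 at -3.01. Values for Nos3 (0.34), Ereg (0.22), Ahsa2 (0.21) and Aldh5a1 (0.0795) turned positive after normexp. None of them was called at 5-fold before, while Ahsa2 and Aldh5a1 were called lower at 2-fold. The cause was not tested. Over the named genes and settings 746 values kept their direction and side of the limit, 26 lost the call and 2 gained it. The 746 include genes without a call in either setting. They also include settings that reuse the same log2 change, such as the filters, the intensity trend and the t-test. Most of it was thus fixed beforehand and is no measure of robustness. Of the 26, 11 came from normexp and 8 from the adjusted t-test. The median over mRNA probes was -0.40, and -0.64 after quantile normalization, -0.65 after median scaling, -0.84 in the authors' values and 0.02 after normexp. Signals near background limit the folds, since 19 of the 96 called pairs have only a bound.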

Other observations

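Of the 38 pairs without a probe for the paired accession, 22 had a probe with the gene's symbol, and 16 of these were tested as the mean over the symbol's probes. There 3 genes rose and 2 fell, where 12.6% of all tested mRNA probes were called higher and 13.7% lower. With outlier-marked spots kept, 22 were tested, 4 rose (Itgad added) and 4 fell (Ei24 and Apbb2 added), where the shares were 12.8% and 15.4%. Ppfia2, a scaffold protein of the synapse, rose by 3.44 (limma adjusted p = 0.000147), Klhl32 by 3.36 (adjusted p = 0.000143) and the eye and brain transcription factor Pax6 by 2.87 (adjusted p = 0.00362), all under lncRNAs that were higher. Yap1, the transcriptional effector of the Hippo pathway, fell by 3.27 (adjusted p = 0.000365) under a lncRNA that was at least 50.5-fold higher, and the cardiac myosin gene Myh6 fell by 3.17 (adjusted p = 0.00119) under a lncRNA that was lower.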
